A study of Homo sapiens with 8 samples.

Results

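The urokinase plasminogen activation system was followed after silencing of HMGA1 in MDA-MB-231, a human breast cancer line of the basal-like kind. It was read through 5 genes chosen by name, namely PLAU, PLAUR, PLAT, SERPINE2 and SERPINB2, and through every probe set that the platform annotation pairs with 1 of them alone. This gave 8 probe sets of 4 genes, out of 54613 probe sets that are no control and 19775 genes with a probe set of their own. SERPINB2, the inhibitor known as plasminogen activator inhibitor 2, was not analysed here. The cells had been transfected with an siRNA against HMGA1 (siHMGA1) or with a control siRNA (siCTRL), and total RNA was taken 72 h later and hybridised to Affymetrix arrays, 4 arrays for each group. Per the methods, a single HMGA1 siRNA was used, so that loss of HMGA1 and any other effect of that sequence cannot be told apart, and both groups went through the same transfection. The labels give biological replicates without describing the cultures, and the p-values therefore measure the spread between these arrays.

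In this system, urokinase (PLAU) and the tissue-type activator (PLAT) are serine proteases that cut plasminogen into plasmin, a broad protease that degrades fibrin and other matrix proteins and activates growth factors and further proteases. PLAUR is the membrane-anchored receptor that holds urokinase at the cell surface, and serpins such as SERPINE2 and SERPINB2 form covalent complexes with the activators and inactivate them. The system is best known in breast cancer for its link to invasion and poor outcome, and MDA-MB-231 cells are a common model for it. HMGA1 is an architectural chromatin factor that binds short A/T-rich stretches of DNA.

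Because HMGA1 binds A/T-rich DNA, the 250 bases before a transcription start are shown for 3 members. These are the members that have a probe set and for which a RefSeq promoter window was examined. PLAU fell, SERPINE2 rose on 1 of its 2 probe sets, and PLAUR was not called in the reported fit. That PLAUR outcome depended on the replicate block and on scaling. The sequences are from RefSeq on GRCh38.p14, written 5′ to 3′ on the strand of the gene, and end at the base before the annotated start. They lie at chr10:73910882-73911131 on the plus strand (PLAU), chr19:43670170-43670419 on the minus strand (PLAUR) and chr2:224031479-224031728 on the minus strand (SERPINE2). Capitals mark matches on either strand to AP-1 (TGANTCA), GC box (GGGCGG), the CCAAT box, the TATA box (the letters TATA) and the E-box (CACGTG) and runs of at least 6 A or T bases.
PLAU: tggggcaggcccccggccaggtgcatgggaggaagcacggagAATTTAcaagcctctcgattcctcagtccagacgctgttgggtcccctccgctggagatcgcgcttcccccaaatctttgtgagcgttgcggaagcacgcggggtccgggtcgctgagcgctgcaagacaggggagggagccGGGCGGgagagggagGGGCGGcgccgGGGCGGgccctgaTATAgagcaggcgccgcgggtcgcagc
PLAUR: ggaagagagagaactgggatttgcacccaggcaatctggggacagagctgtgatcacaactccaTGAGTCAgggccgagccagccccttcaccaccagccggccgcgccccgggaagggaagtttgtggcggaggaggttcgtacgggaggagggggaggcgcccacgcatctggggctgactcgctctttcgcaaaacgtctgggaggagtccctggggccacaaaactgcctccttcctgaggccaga
SERPINE2: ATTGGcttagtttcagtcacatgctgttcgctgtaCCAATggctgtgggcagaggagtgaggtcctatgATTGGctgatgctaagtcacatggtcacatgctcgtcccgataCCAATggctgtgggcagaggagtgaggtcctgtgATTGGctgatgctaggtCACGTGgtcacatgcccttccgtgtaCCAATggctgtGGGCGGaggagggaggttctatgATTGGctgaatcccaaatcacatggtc

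The PLAU window was 31.2% A or T, against a median of 42% over all 35116 windows of this length. It held 3 GC boxes, which begin 66, 51 and 40 bases before the start, a TATA match 27 bases before it and a single A/T run 208 bases before it. RefSeq has a further PLAU window at chr10:73910360-73910609, which is not printed because it holds fewer matches. It was 53.2% A or T, above the median, and held 2 A/T runs and a CCAAT match, so that the 2 PLAU windows lie on either side of the median. The PLAUR window was 36.8% A or T and held 1 match, an AP-1 site 186 bases before the start. The SERPINE2 window was 46.8% A or T and held 7 CCAAT matches, an E-box 87 bases and a GC box 50 bases before the start. Its further window, at chr2:224038641-224038890, was 24.8% A or T, below the median, and held 2 GC boxes. Of all windows, 6.57% held an AP-1 match, 42.6% a GC box, 32% a CCAAT match, 27.1% a TATA match, 6.34% an E-box and 58.7% an A/T run, so that the AP-1 letters of PLAUR and the E-box letters of SERPINE2 were the rarer ones. No PLAT window was examined here. These matches describe the letters and were not tested for binding.

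HMGA1 itself, the target of the siRNA, was lower in every siHMGA1 array. The brighter of its probe sets (206074_s_at) gave log2 signals of 12.62, 12.84, 12.69 and 12.85 in siCTRL arrays 1 to 4 and of 10.11, 10.37, 10.29 and 10.57 in siHMGA1 arrays 1 to 4. The difference was −2.42 on the log2 scale (SE 0.0981, n = 4 per group, adjusted p = 5.20e-08 by limma), which leaves 0.187 of the control signal. Its second probe set, 210457_x_at, of a type whose probes may also bind other transcripts, gave 8.55, 8.22, 8.21 and 7.98 in siCTRL and 7.64, 7.59, 7.03 and 7.08 in siHMGA1 arrays. These groups were apart too, with a smaller difference of −0.90 (adjusted p = 0.00107 by limma), or 0.535 of the control signal. All log2 differences below are siHMGA1 minus siCTRL, and a change was called at a Benjamini and Hochberg adjusted p under 0.05 from limma over all 54613 probe sets. The arrays were alike in overall signal, with medians between 6.07 and 6.12, and correlated at 0.995 to 0.998 within groups and 0.989 to 0.992 between them. An array signal has no read depth behind it, and the number of arrays sets the precision.

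HMGA1 silencing lowered both plasminogen activators, raised SERPINE2 on its bright probe set, and left PLAUR without a call on any probe set. The PLAUR outcome depended on the replicate block and on scaling, as given below. Of the 8 probe sets 3 were called lower (PLAU, PLAU and PLAT), 1 was called higher (SERPINE2) and 4 were not called. Over all probe sets, 10.4% were called lower and 11.7% higher (5695 and 6385 probe sets, or 4286 and 10458 with arrays centred on housekeeping genes). By genes, 2 of 4 members were lower and 1 was higher on their brightest probe set, that is, the one with the highest mean over the 8 arrays, against 13.3% lower and 13.9% higher of all genes. With 4 members measured, each gene is a large part of its share. The members, and the lists below, were chosen with earlier results of these data known. Their shares are therefore a description and no test of the system. The 4 called probe sets were also the 4 whose groups did not overlap.

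**Figure D1:**
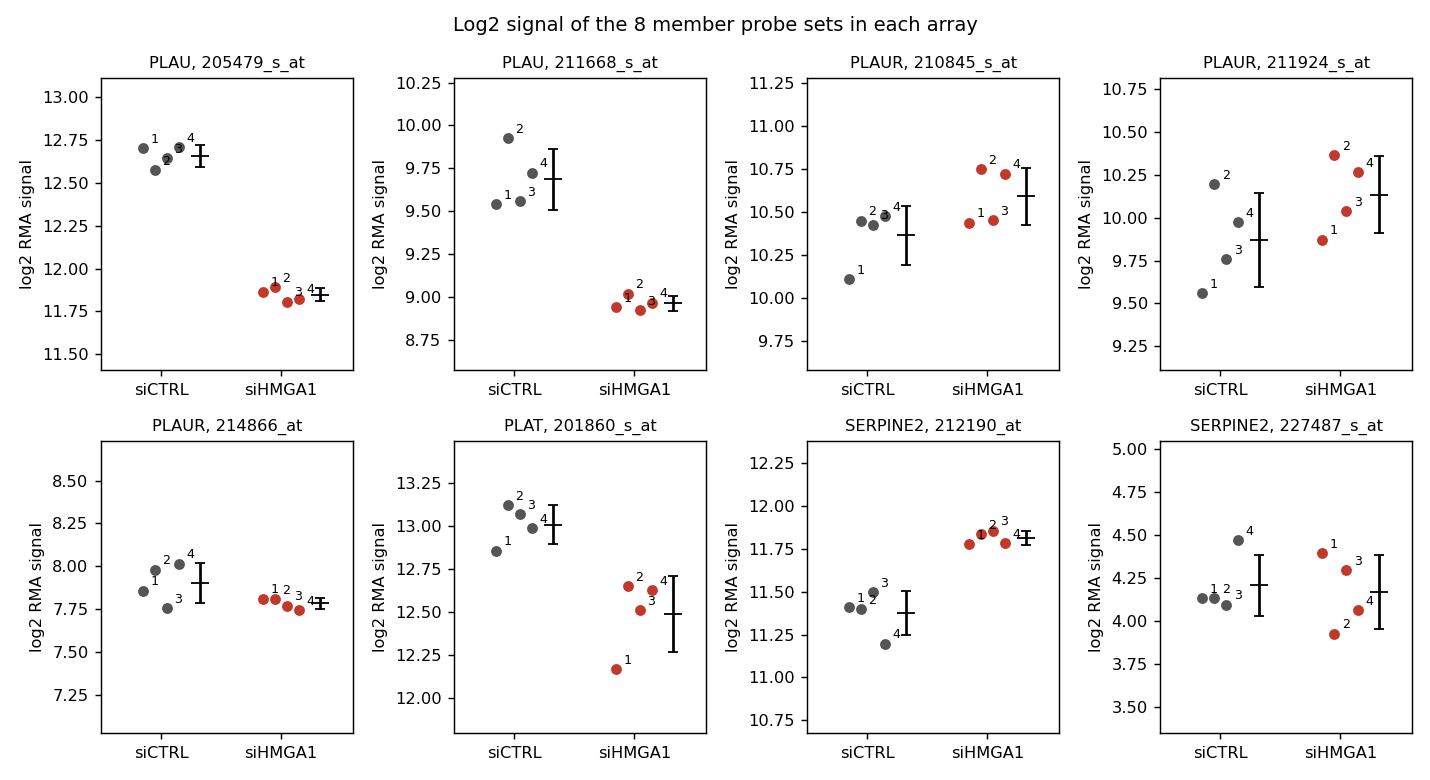
Log2 RMA signal (y axis) of each of the 8 member probe sets in the 4 siCTRL arrays (grey) and the 4 siHMGA1 arrays (red). Numbers mark the arrays, black bars give mean ± SD, and every panel spans the same height. The groups are apart for both PLAU probe sets, PLAT and SERPINE2 212190_at, and overlap in the other 4 panels.

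PLAU, the urokinase protease, showed the largest change of the members. On 205479_s_at the log2 signal was 12.70, 12.57, 12.64 and 12.71 in siCTRL arrays 1 to 4 and 11.86, 11.89, 11.81 and 11.82 in siHMGA1 arrays 1 to 4. Every silenced array lay below every control array, and the arrays within each group were close to each other. The means were 12.66 ± 0.0636 and 11.85 ± 0.0379 (SD, n = 4), a difference of −0.81 (SE 0.0626, adjusted p = 2.80e-06 by limma), and the signal was 0.571 of control (95% interval 0.519 to 0.627). The exact permutation test over the 8 arrays gave p = 0.0286 (two-sided), the smallest value that 4 arrays against 4 allow.

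The second PLAU probe set, 211668_s_at, fell in the same way. Its log2 signal ran at 9.54, 9.92, 9.56 and 9.72 in siCTRL arrays 1 to 4, against 8.94, 9.02, 8.92 and 8.97 after silencing. The groups did not overlap, although the control arrays were more spread on this probe set than on the brighter one (SD 0.178 against 0.0636). The difference was −0.72 (SE 0.0867, adjusted p = 7.80e-05 by limma). The 2 probe sets differed in their change by −0.08 (95% interval −0.36 to 0.19), with an adjusted p of 0.716 by limma over the 4 within-gene comparisons made, which share 1 pooled spread. A fall of PLAU RNA in bulk cells can come from fewer expressing cells or from less RNA per cell, and these cannot be told apart here.

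C10orf55, a transcript annotated across the PLAU gene in RefSeq, was also lower, at 4.88 ± 0.235 in siCTRL and 4.35 ± 0.160 in siHMGA1 arrays (SD, n = 4), a difference of −0.53 (adjusted p = 0.00593 by limma). It is named for its position, chosen after the values were known, and its signal is below 6, where RMA values are compressed by background. How far the PLAU and C10orf55 probes share transcripts was not tested.

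PLAT, the tissue-type activator whose best known substrate site is fibrin-bound plasminogen, fell as well. Its probe set 201860_s_at gave 12.86, 13.12, 13.07 and 12.99 in siCTRL arrays 1 to 4 and 12.17, 12.65, 12.51 and 12.63 in siHMGA1 arrays 1 to 4. The groups were apart, with siHMGA1 array 1 the lowest of all. The means were 13.01 ± 0.115 and 12.49 ± 0.223 (SD, n = 4), a difference of −0.52 (SE 0.106, adjusted p = 0.00358 by limma) and 0.698 of the control signal. Without siHMGA1 array 1 the difference was −0.41, which is still called.

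PLAUR, the urokinase receptor, was not called on any of its 3 probe sets. The brightest, 210845_s_at, gave 10.11, 10.45, 10.43 and 10.48 in siCTRL arrays and 10.44, 10.75, 10.45 and 10.72 in siHMGA1 arrays. The groups overlapped, and siCTRL array 1 stood below the other 7 arrays. The difference was 0.23 (SE 0.103, adjusted p = 0.160 by limma, exact permutation p = 0.171), which corresponds to 1.17 times the control signal with a 95% interval from 0.999 to 1.37. The interval holds both no change and a rise by more than the reported 1.17.

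On the second PLAUR probe set, 211924_s_at, the signals were 9.56, 10.19, 9.76 and 9.97 in siCTRL and 9.87, 10.36, 10.04 and 10.27 in siHMGA1 arrays. Arrays of both groups interleaved, and arrays 2 and 4 were the brighter ones in each group. The difference was 0.26 (adjusted p = 0.228 by limma). With the replicate number as a block in the fit it was called higher (adjusted p = 0.0231 by limma). The sample titles number the experiments alike in both groups, and whether same-numbered arrays were paired is not stated. The third, 214866_at, gave 7.86, 7.98, 7.76 and 8.01 in siCTRL and 7.81, 7.81, 7.77 and 7.74 in siHMGA1 arrays, with a difference of −0.12 (adjusted p = 0.304 by limma). Its direction was opposite to that of 210845_s_at, and the 2 changes differed by 0.34 (95% interval 0.07 to 0.62). That difference passed limma (adjusted p = 0.0352 over 4 comparisons) and missed the exact permutation test (adjusted p = 0.114). The call on PLAUR also depended on scaling. With arrays centred on housekeeping genes 210845_s_at reached 0.31 (adjusted p = 0.0390 by limma).

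SERPINE2, protease nexin 1, an inhibitor of urokinase, tissue-type activator, plasmin and thrombin, was the 1 member that rose. On 212190_at the signal was 11.41, 11.40, 11.50 and 11.20 in siCTRL arrays 1 to 4 and 11.78, 11.84, 11.86 and 11.78 in siHMGA1 arrays 1 to 4. All silenced arrays were above all control arrays, and the silenced arrays were the tighter group. The means were 11.38 ± 0.126 and 11.81 ± 0.0390 (SD, n = 4), a difference of 0.44 (SE 0.0739, adjusted p = 9.81e-04 by limma) and 1.35 times the control signal (95% interval 1.21 to 1.51). The other SERPINE2 probe set, 227487_s_at, was dim, with signals of 4.13, 4.13, 4.09 and 4.47 in siCTRL and 4.39, 3.92, 4.29 and 4.06 in siHMGA1 arrays. It did not follow the bright one, with overlapping groups and a difference of −0.04 (adjusted p = 0.875 by limma). The 2 probe sets differed in their change by 0.48, which passed limma (adjusted p = 0.00682) and missed the exact permutation test (adjusted p = 0.114). Below 6 on the log2 scale a real change is compressed, so that little can be read from the dim probe set.

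**Figure D2:**
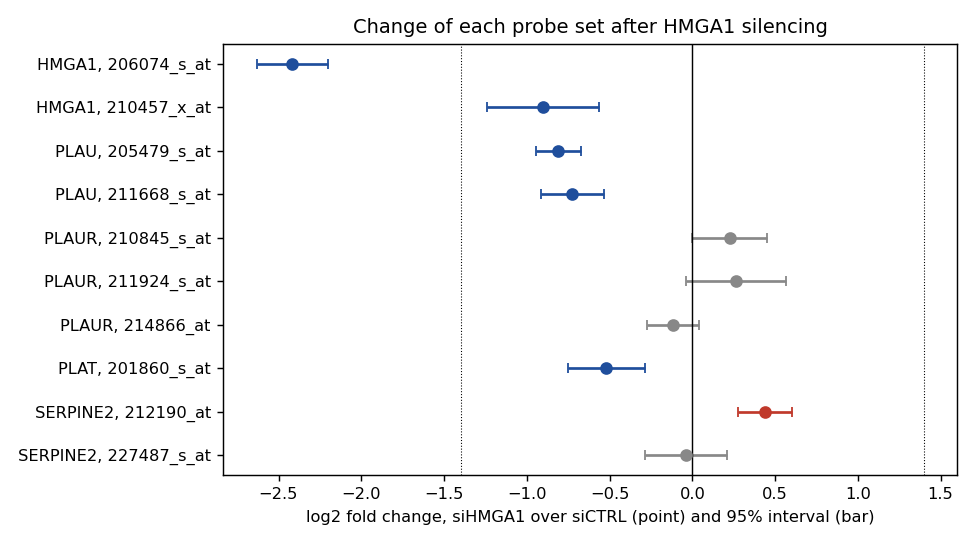
Log2 fold change, siHMGA1 over siCTRL (x axis), with its 95% interval from limma for the HMGA1 probe sets and the 8 member probe sets. Blue marks a lower and red a higher call at adjusted p under 0.05, grey no call, and dotted lines the study's fold threshold of 1.4. PLAU at −0.81 and −0.72, PLAT at −0.52, SERPINE2 at 0.44 and HMGA1 210457_x_at at −0.90 all lie inside the dotted lines, whereas HMGA1 206074_s_at at −2.42 lies outside.

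The size of these changes was moderate. The study set its own thresholds at an adjusted p under 1e-04 and a log2 change beyond 1.4. Of the members, both PLAU probe sets passed the first, and 0 of 8 passed both. Over all probe sets, 172 lower and 44 higher ones did. Among the called probe sets, the signal after silencing was 0.571 to 0.698 of control for the activators and 1.35 times control for SERPINE2. On the 2 HMGA1 probe sets it was 0.187 and 0.535 of control.

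The balance between activators, receptor and inhibitor was compared in each array as the log2 ratio of the brightest probe sets, and only its change between groups is read, since probe sets differ in brightness for reasons other than RNA level. PLAU over SERPINE2, protease over inhibitor, stood at 1.29, 1.17, 1.15 and 1.51 in siCTRL arrays and at 0.09, 0.05, −0.05 and 0.04 in siHMGA1 arrays. The groups were far apart, and the ratio fell by 1.25 on the log2 scale (SE 0.123), that is, 2.37-fold. PLAT over SERPINE2 stood at 1.45, 1.72, 1.57 and 1.79 in siCTRL arrays and at 0.39, 0.81, 0.65 and 0.84 in siHMGA1 arrays, again without overlap, and was 1.94-fold lower after silencing. Both passed the exact permutation test after adjustment over the 6 member pairs (adjusted p = 0.0429, the smallest value seen). That outcome was fixed by the single genes. Both activators were lower, and SERPINE2 was higher, in every silenced array than in every control array. The test therefore adds nothing to the calls of the single genes.

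PLAU against its own receptor gave a similar picture. The log2 ratio of PLAU over PLAUR was 2.59, 2.12, 2.22 and 2.23 in siCTRL arrays and 1.43, 1.14, 1.36 and 1.10 in siHMGA1 arrays. The ratio was 2.05-fold lower after silencing, with the groups apart (exact permutation, adjusted p = 0.0429). PLAUR over PLAT rose by 0.74 with the same adjusted p. The activators fell unequally by limma, PLAU by 0.29 more than PLAT (adjusted p = 0.0293), but the exact permutation test did not call this (adjusted p = 0.103), and siHMGA1 array 1 overlapped the control arrays. PLAUR and SERPINE2 did not differ in their change beyond their spread (−0.21, 95% interval −0.46 to 0.04, exact permutation adjusted p = 0.171). The limma interval of these ratios uses 1 spread pooled over the 6 pairs, which share genes.

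**Figure D3:**
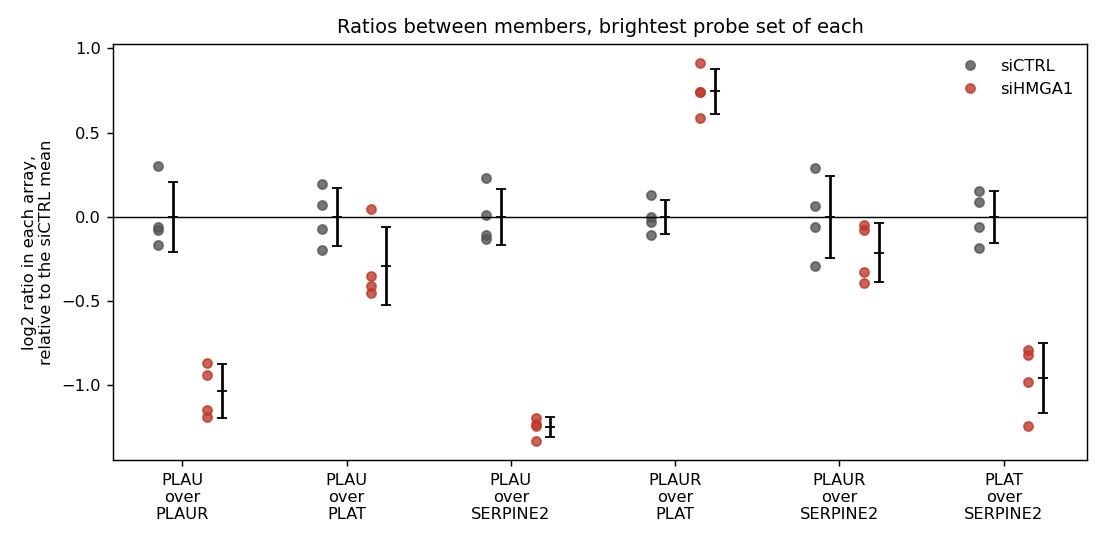
Log2 ratio between the brightest probe sets of member pairs in each array (y axis), shown relative to the siCTRL mean of the pair, with mean ± SD as black bars. Grey points are siCTRL and red points siHMGA1 arrays. PLAU over SERPINE2 lies farthest from 0 after silencing, at −1.25, and PLAU over PLAT and PLAUR over SERPINE2 overlap with the controls.

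The other genes around the system were read from lists, each gene by its brightest probe set. Of all genes, 27.2% were called in either direction, with 13.3% lower and 13.9% higher, and the count of each list is to be read against these shares. Plasminogen itself (PLG), the liver-made zymogen, was dim in all arrays (5.32 to 5.74) and was not called. Among plasminogen and substrates of the activators and plasmin, 0 of 10 measured genes fell and 2 rose (20% called, below the share of all genes), with a median change of −0.02 against 0.01 over all genes (at an unadjusted p under 0.05 by limma 2 fell and 2 rose, with the methods' t-test after adjustment 0 fell and 1 rose, and with cyclic loess 1 fell and 2 rose). PDGFD, a growth factor that urokinase can release from its latent form, rose from 8.63 ± 0.145 to 9.26 ± 0.0208 (SD, n = 4), a change of 0.63 (adjusted p = 9.27e-05 by limma) that its second probe set shared at 0.29. FGB, the fibrinogen beta chain, rose by 0.29 (adjusted p = 0.0318 by limma), but its signal was near 4, where little RNA can be told from background, its other probe set gave −0.08, and the mean of both was not called (0.11, adjusted p = 0.368).

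Among proteases that can activate the zymogens, 1 of 11 fell and 2 rose (median −0.01), that is, 27.3% called against 27.2% of all genes. CTSL, the lysosomal cysteine protease cathepsin L, rose by 0.49 (adjusted p = 2.69e-04 by limma), with siCTRL arrays between 10.38 and 10.58 and siHMGA1 arrays between 10.91 and 11.06. PRSS3, mesotrypsin, rose by 0.49 and, on its other probe set, by 0.30, both on probe sets that may also bind related trypsin transcripts. F12, the contact-phase coagulation factor XII, fell by 0.24 (adjusted p = 0.0150 by limma). That last call was lost when arrays were centred on housekeeping genes (−0.16, adjusted p = 0.0962).

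Among plasminogen receptors, co-receptors and clearance receptors, 1 of 24 fell and 3 rose (median 0.03), or 5 with housekeeping centring. The 16.7% called lie below the share of all genes. PLGRKT, a transmembrane plasminogen receptor, rose by 0.44 (adjusted p = 5.37e-04 by limma), from 8.87 ± 0.0810 to 9.30 ± 0.0645 (SD, n = 4), and it has a single probe set. GPC1, the heparan sulphate proteoglycan glypican 1, rose by 0.26. EGFR, a receptor tyrosine kinase that signals together with PLAUR, rose by 0.32 on its brightest probe set and 0.32 on the next, but fell by 0.21 on another (adjusted p = 0.0353 by limma), and the mean of all its probe sets changed by 0.03. FPR1, the formyl peptide receptor that can pair with PLAUR, fell by 0.54 (adjusted p = 3.13e-04 by limma) from a low signal of 6.83 ± 0.0567 (SD, n = 4). The integrins, LRP1 and annexin A2 of this list passed no test.

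Of the other inhibitors 2 of 16 were lower and 3 higher (median −0.01), that is, 31.2% called, close to the 27.2% of all genes. SERPINI1, neuroserpin, an inhibitor of tissue-type activator, rose from 8.35 ± 0.210 to 9.19 ± 0.0481 (SD, n = 4), a change of 0.84 (adjusted p = 5.28e-05 by limma). SPINT1 and SPINT2, Kunitz-type inhibitors of membrane-bound serine proteases, rose by 0.70 and 0.26. SPINT2 falls outside the rule for named genes and is named after its value was seen. The second SPINT1 probe set gave 0.08 and was not called. TFPI, the tissue factor pathway inhibitor, fell by 0.61 on its brightest probe set (adjusted p = 9.57e-05 by limma), while 1 of its 5 probe sets rose by 0.43, and the mean of all 5 was not called (−0.13, adjusted p = 0.159). SERPINB9, the granzyme B inhibitor, fell by 0.42 on its brightest probe set, and its other 2 gave −0.14 and 0.01.

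Of serpin relatives of the members, in clades B and E and near them, 1 of 14 was lower and 2 were higher (median −0.02), that is, 21.4% called against 27.2% of all genes. SERPINB7 rose by 0.51 (adjusted p = 0.00156 by limma) at a dim signal of 5.24 to 5.75 on average. SERPINB1, the neutrophil elastase inhibitor, rose by 0.26 on its brightest probe set and by 0.28 on the second, and fell by 0.25 on another. Its call was lost in 5 of the 8 leave-one-out fits and in the mean of its probe sets (0.13, adjusted p = 0.178). SERPINB9 was the 1 lower gene, and it is already counted among the other inhibitors. The other 11 were not called, among them SERPINB8, which is also in both lists.

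**Figure D4:**
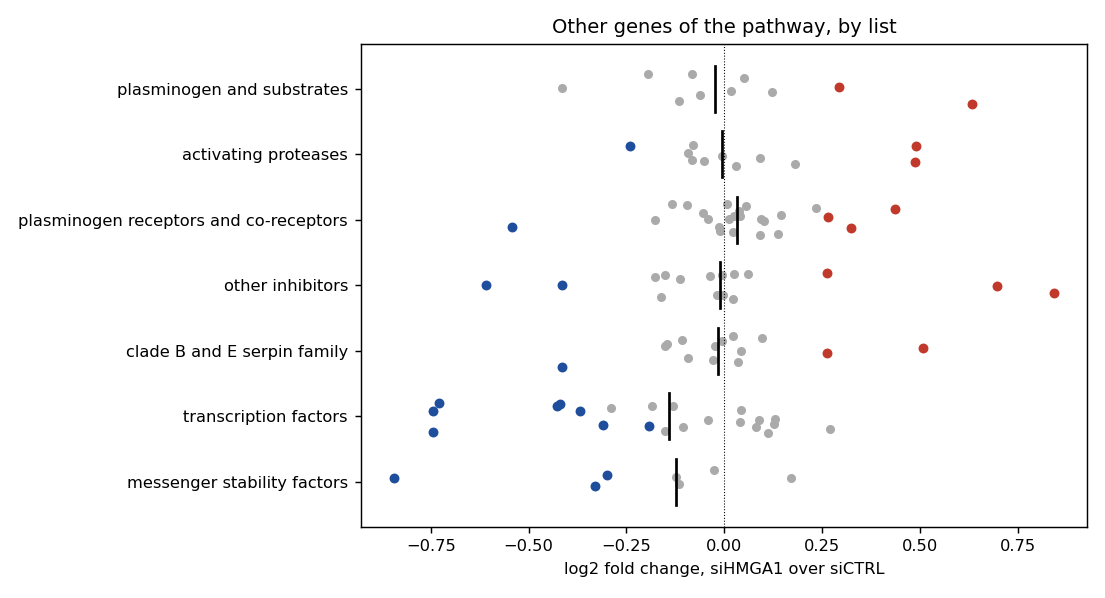
Log2 fold change, siHMGA1 over siCTRL (x axis), of every measured gene of the 7 pathway lists, by its brightest probe set. Blue and red mark lower and higher calls at adjusted p under 0.05, grey points no call, and black bars list medians. The medians of transcription factors (−0.14) and messenger stability factors (−0.12) lie below 0, and the other 5 lie between −0.02 and 0.03.

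Transcription factors linked to the regulation of these genes gave 8 lower and 0 higher calls among 22, against a background of 13.3% lower. Their median was −0.14, against 0.01 for all genes. Of the 22 factors 18 had a mean signal of 8 or more, against 8443 of all 19775 genes. The background is therefore not one of genes alike in brightness, and dim signals are compressed. EGR1, an immediate early zinc finger factor, fell from 9.53 ± 0.180 to 8.79 ± 0.139 (SD, n = 4), a change of −0.75 (adjusted p = 1.75e-04 by limma), and its other probe sets fell by 0.65 and 0.63. JUND and FOS, subunits of AP-1, fell by 0.75 and 0.43 on their brightest probe sets, and FOS was dim. JUND fell on 3 of its 4 probe sets and gave 0.01 on the fourth, whose signal was under 6. EPAS1, the hypoxia factor HIF-2 alpha, fell by 0.73 (adjusted p = 1.37e-05 by limma), while its 2 other probe sets were dim and not called. The remaining calls, ELK1, SP3, SP1 and HIF1A, ranged from −0.42 to −0.19. The count depended on the processing: it was 6 without siHMGA1 array 3, 6 lower and 2 higher with housekeeping centring, 9 lower and 0 higher with the methods' t-test, and 11 lower and 1 higher at an unadjusted p under 0.05 by limma.

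Factors that control the stability of PLAU and PLAUR messages gave 3 lower and 0 higher calls among 7 (median −0.12), the same counts as at an unadjusted p under 0.05 by limma, 5 lower and 0 higher with the methods' t-test, and 3 lower and 1 higher with housekeeping centring. Of all genes 13.3% were lower, and with 7 genes each is a large part of the share. All 7 had a mean signal of 8 or more, unlike most genes of the background. TYMS, thymidylate synthase, an enzyme of DNA precursor synthesis that also binds messages, fell by 0.85 (adjusted p = 5.69e-06 by limma), from 13.26 ± 0.0365 to 12.41 ± 0.118 (SD, n = 4). MAPKAPK2, a stress kinase that acts on proteins binding A/U-rich elements, fell by 0.30. ELAVL1, the A/U-rich element binding protein HuR, fell by 0.33 on its brightest probe set but rose by 0.41, 0.32 and 0.42 on its other 3, so that its direction depends on the probe set and the gene mean gave 0.20. Whether any of these factors had a part in the change of PLAU was not tested.

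The identity of the cells was read from markers. Of 7 genes that mark MDA-MB-231 cells 6 had a mean log2 signal of 8 or more, VIM between 14.51 and 14.72 among them, and SPARC was below 6. Among them MSN was lower by 0.34 (adjusted p = 0.00428 by limma) and AXL higher by 0.19 (adjusted p = 0.0353). The luminal and epithelial markers CDH1, FOXA1 and PGR were below 6. KRT19, EPCAM, GATA3 and ERBB3 of the same list had a mean of 8 or more. Of the 8 luminal and epithelial markers 3 rose with silencing (37.5%, against 13.9% of all genes called higher), ERBB3 by 1.31, KRT19 by 0.69 and EPCAM by 0.38, and the mean of the list lay between 7.23 and 7.37 in siCTRL arrays and between 7.58 and 7.68 in siHMGA1 arrays. The other 5, CDH1 (0.24), FOXA1 (0.06), PGR (0.04), GATA3 (−0.05) and ESR1 (−0.10), were not called. ERBB3, KRT19 and EPCAM moved with the same groups as PLAU, PLAT and SERPINE2. The part of these 3 markers in the change of the members was not tested. Leukocyte and fibroblast markers did not reach 8 in any gene measured, and 1 of 4 endothelial markers did. Among these dim genes PTPRC (4.67 to 5.17) and LUM (5.51 to 6.16) were called higher and KDR was called lower by 0.27.

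**Figure D5:**
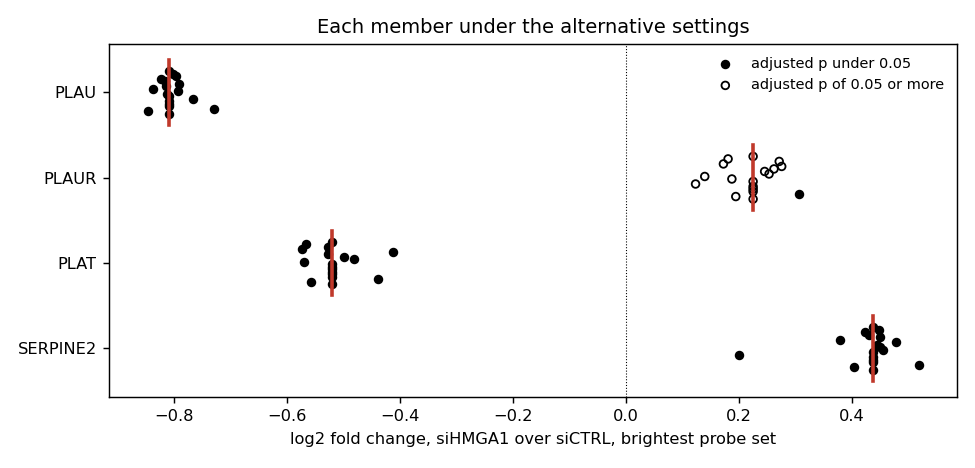
Log2 fold change of the brightest probe set of each member, siHMGA1 over siCTRL (x axis), in the reported fit (red line) and under each alternative setting and left-out array (points, filled at adjusted p under 0.05). PLAU, PLAT and SERPINE2 were called on the same side in every setting shown, PLAUR was called only with housekeeping centring, at 0.31, and the SERPINE2 point at 0.20 is the mean of its 2 probe sets.

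Across the alternative settings the members kept their order. PLAU 205479_s_at stayed between −0.85 and −0.73, PLAT between −0.57 and −0.41 and SERPINE2 212190_at between 0.38 and 0.52, and each was called in every fit in which it was tested. The lowest value for SERPINE2 came without siCTRL array 4. When the probe sets of a gene were averaged, SERPINE2 changed by 0.20 (adjusted p = 0.0256 by limma), since the dim probe set then counts as much as the bright one.

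The genes whose signals ran most alike with each member over the 8 arrays were named by Pearson's r among 19774 other genes, as a description. These arrays hold 2 groups, so that any 2 genes with a large change between the groups run together. For PLAU they were UBALD2 (r = 0.998), MAGEC1 (0.998) and LEF1 (0.997), which changed by −1.07, −2.14 and −1.66, and 999 genes had an r over 0.95. For PLAT they were ZC3H18 (0.993), KRI1 (0.992) and CADM3-AS1 (0.984), and 110 genes passed 0.95. For SERPINE2 they were IL10RB (0.996), MCCC1 (0.995) and GPRC5B (0.994), with 412 genes past it. For PLAUR they were RABGGTA (0.982), CD81 (0.979) and LETM2 (0.978), none of which was called between the groups, and 27 genes passed 0.95.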

How the data were processed

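Total RNA of MDA-MB-231 cells was hybridised to Affymetrix arrays, 4 for siHMGA1 and 4 for siCTRL. The files hold deposited log2 values per probe set, made by the authors with RMA, that is, background correction, quantile normalisation and summarisation of probes. RMA and affy are the tools named in the submitters' processing notes, with no version. Quantile normalisation removes differences in total signal between arrays, and dim signals are compressed. Scanner intensities were not analysed. The methods differ between sections on the array type and on 3 or 4 replicates, and all 8 arrays were used.

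The table has 54675 probe sets. Leaving aside 62 controls, the platform annotation pairs 41091 with 1 gene and 1801 with several, and 11721 are unnamed here. Only the first kind was named. Checked against the RefSeq table of GRCh38.p14, 0 symbols needed an update. The sources used here name no build for the files, so no coordinates are given for probe sets, and the promoter windows are on the build of that table.

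Every probe set was fitted with limma 3.58.1 in R 4.3.3 (default settings, group as the only term), with Benjamini and Hochberg adjustment over 54613 probe sets. Exact permutation tests over the arrays were two-sided. Ratios between members and differences between probe sets of a gene were fitted as rows of their own. The fit was tested on simulated data with known changes. From each list, up to 4 genes were named that passed the test and moved most, and up to 2 that moved the other way. For each member, 3 genes were named by Pearson's r. The members and lists were chosen with earlier results of these data known. Alternatives covered a replicate block, cyclic loess, centring on housekeeping genes and a minimum mean signal of 6. They also covered 3 other choices of probe sets per gene, trend and robust options of limma and weights for arrays. Each array was left out in turn, and the two-tailed t-test named in the methods and the study's thresholds were applied. The methods give that t-test in a general section on statistics and name limma for the arrays.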

Additional observations from a re-analysis of the deposited data

Results flagged for a closer look

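Single arrays stood apart from the other 3 of their group for 7 of the 66 groups of 4 arrays checked, over 33 probe sets, where the criterion (Dixon's critical value) picks about 1 group in 20 by chance. For PLAUR (210845_s_at), siCTRL array 1 was at 10.11, below the other control arrays at 10.43 to 10.48. Without it the difference of PLAUR between groups was 0.14. For the dim SERPINE2 probe set (227487_s_at), siCTRL array 4 was at 4.47, above 4.09 to 4.13 in the others.

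In siCTRL array 1, F12 was at 8.16 (others 8.09), EGR1 at 9.80 (others 9.43 to 9.47) and ELAVL1 at 12.88 (others 12.68 to 12.71). FGB was at 3.75 in siCTRL array 3 (others 3.94 to 3.97), and MAPKAPK2 at 10.47 in siCTRL array 4 (others 10.39). All 7 were control arrays, 4 of them array 1, and the part of this array in the changes of EGR1, ELAVL1 and F12 was not tested beyond leaving it out, after which all 3 stayed called.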

How the results depend on the processing

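The sample titles number the experiments alike in both groups, without saying whether same-numbered arrays were made together. Deviations of same-numbered arrays correlated at −0.14 to 0.22, and 1 of 4 numbers matched its own best. Such weak correlations over few arrays cannot settle whether the arrays were paired. With the replicate block the member probe sets called higher were 2 in place of 1, through PLAUR 211924_s_at (adjusted p = 0.0231 by limma). PLAUR 210845_s_at gave an adjusted p of 0.0701 by limma, and the calls of PLAU, PLAT and SERPINE2 did not change. Among plasminogen and substrates 1 gene was then lower in place of 0.

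Centring on 8 housekeeping genes, of which TBP (−0.64), HPRT1 (−0.34) and YWHAZ (0.18) themselves changed, moved the median of all probe sets from 0.01 to 0.09. It gave 4286 lower and 10458 higher calls in place of 5695 and 6385. It also gave 2 member probe sets called higher, with PLAUR 210845_s_at at 0.31 (adjusted p = 0.0390 by limma). With 1 brightest probe set per gene the counts were 2904 lower and 3124 higher. At the study's thresholds they were 172 and 44, and 0 and 0 for the members. Leaving out each array in turn gave 4800 to 5621 lower and 5188 to 6386 higher calls. Of the 8 member probe sets 3 were called lower and 1 higher each time. The changes on the brightest probe sets were −0.84 to −0.79 for PLAU, 0.14 to 0.28 for PLAUR, −0.57 to −0.41 for PLAT and 0.38 to 0.48 for SERPINE2. Cyclic loess turned the balance of all calls, with 6287 lower and 5742 higher. In the other 136 comparisons of a result with an alternative, folds kept direction and call and counts stayed within 1.5 times, these loess counts and a member count of 2 lower with 1 probe set, or the mean, per gene included. Among the list genes, FGB lost its call with the methods' t-test and without siCTRL array 3, siHMGA1 array 1 or siHMGA1 array 2 (adjusted p up to 0.0918), and SERPINB1 with the t-test and 5 left-out arrays (up to 0.0922). The causes were not tested.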
